A study of Homo sapiens with 6 samples.

Results

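The translation initiation factor genes are the protein-coding genes whose symbol starts with EIF1, EIF2, EIF3, EIF4, EIF5 or EIF6, leaving out the EIF2AK kinases. The rule used symbols and no measured value, although it was set with earlier results of these data known, and 52 of the 25202 rows of the gene count table belong to them. The cells were Huh7, a human hepatoma line, with 3 RNA libraries from cells given a guide RNA against HNRNPA2B1 and labelled a knockout, and 3 from cells given a negative-control guide and labelled wild type. Both groups were grown in plain culture, with no other allele or agent named in the labels. The product of HNRNPA2B1 is a nuclear protein that binds RNA and acts in its splicing and transport. It is not stated whether the libraries of a group came from separate cultures, and p-values may therefore rest on technical spread alone. It is also not stated whether the knockout line is 1 clone or a pool.

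Initiation is the step at which a ribosome is loaded with initiator tRNA and placed at a start codon. eIF2, a heterotrimer, binds GTP and initiator tRNA to form the ternary complex, and eIF2B is the nucleotide exchange factor that recharges eIF2 with GTP. Phosphorylation of the eIF2 alpha subunit blocks that exchange and lowers initiation across the cell in stress. eIF3 is a large scaffold on the small ribosomal subunit, and eIF1 and eIF1A hold that subunit open for scanning. The eIF4 factors recruit mRNA: eIF4E binds the cap, eIF4G is the scaffold, eIF4A is the helicase that unwinds the 5′ leader, and the 4E-binding proteins sequester eIF4E until mTORC1 phosphorylates them. eIF5 triggers GTP hydrolysis on eIF2, and eIF5B joins the large subunit.

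The targeted gene was measured in each library first. HNRNPA2B1 (ENSG00000122566) had 8729, 8232 and 8364 counts in knockout replicates 1, 2 and 3, against 40867, 32755 and 44149 counts in control replicates 1, 2 and 3. The groups did not overlap, with means of 229 ± 8.30 CPM in the knockout and 1214 ± 221 CPM in the controls (SD, n = 3 each). CPM here is the count relative to the library's total after TMM, a scaling factor that aligns the bulk of genes between libraries. The log2 fold change, knockout over control here and throughout, was −2.40 ± 0.14 (SE), with an adjusted p of 2.28e-06 by edgeR's quasi-likelihood test with Benjamini-Hochberg adjustment over all tested genes. Libraries held 32517757 to 38870244 counts. All 10 hepatoma markers, ALB and AFP among them, had counts in each library, with a summed level of 13649 to 14628 CPM in the knockout and 19736 to 22921 CPM in the controls. At an adjusted p below 0.05, 7 of them were called lower, with APOA1 and SERPINA1 falling most, at −1.73 and −1.64. KRT18 was called higher, at 0.41, and KRT8 and TTR were not called, at 0.23 and 0.22. Of 13 markers of leukocytes, endothelium, mesenchyme and red cells, 4 had counts in each library, with sums of 252 to 276 CPM in the knockout and 578 to 632 CPM in the controls. LYZ and CD68, genes best known from myeloid cells, and PECAM1 made up most of those sums and were called lower in the knockout. PDGFRB, a mesenchymal marker, was called higher, with 145, 125 and 149 counts in the knockout and 26, 38 and 27 counts in the controls, and so was COL3A1, although its groups overlapped. PTPRC, CD3E and HBB had at most 18, 7 and 9 counts in a knockout library and 0 in each control library. VWF, CDH5, ACTA2 and DES had at most 27, 6, 20 and 6 counts in a knockout library. In a control library they had at most 8, 4, 3 and 4 counts, and COL1A1 had at most 7. Knockout replicate 2 stood apart on the collagen genes COL1A1 and COL3A1, with 165 and 262 counts. The part of these marker shifts in the results below was not tested, and in bulk RNA fewer cells of a type and less RNA per cell cannot be told apart.

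Of the 52 genes, 49 had enough counts to be tested. At an adjusted p below 0.05, 6 were higher in the knockout, 22 were lower and 21 were not called, so 57.1% of those tested were called, against 40.1% of all 16331 tested genes. Among all tested genes 21.1% were called higher and 19.0% lower. Most initiation factor genes are abundantly expressed, and the background of abundant genes was different. Of the 3879 tested genes whose mean log2 CPM was at least 6, 49.9% were called, 11.6% higher and 38.3% lower. Of the 39 initiation factor genes at that level, 48.7% were called, 3 of them higher and 16 lower, or 7.69% and 41.0%. The shares among abundant initiation factor genes were thus near those of abundant genes in general. The median log2 fold change of the 49 genes was −0.25, against 0.05 over all tested genes and −0.21 over the abundant ones. EIF4E3 passed the filter on low counts only through the knockout libraries, so it had to differ, and without it the counts were 5 higher and 22 lower of 48 with the same median of −0.25.

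The counts depended on single libraries and on the scaling. Without knockout replicate 1, 14 initiation factor genes were called lower, and without knockout replicates 2 and 3 the number called higher fell to 2 and 3. Over all tested genes, calls also fell, from 6548 to 4416, 4547 and 4932 without knockout replicates 1, 2 and 3. Calls numbered 6808, 6272 and 6895 without control replicates 1, 2 and 3. Leaving out a knockout library thus lowered the calls in general, not in these genes alone. With library size alone in place of TMM, 9 initiation factor genes were called higher and 14 lower, and with cyclic loess 10 were called higher and 15 lower. All knockout libraries lay above all control libraries for 7 of the 49 genes and below them for 23, against 29.6% and 24.8% of all tested genes and 16.1% and 46.6% of the abundant ones. Initiation factor genes took 1.19%, 1.20% and 1.19% of all counts in knockout replicates 1, 2 and 3, against 1.28%, 1.26% and 1.26% in control replicates 1, 2 and 3. These shares use no scaling factor, and all 3 knockout libraries lay below all 3 controls.

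**Figure D1:**
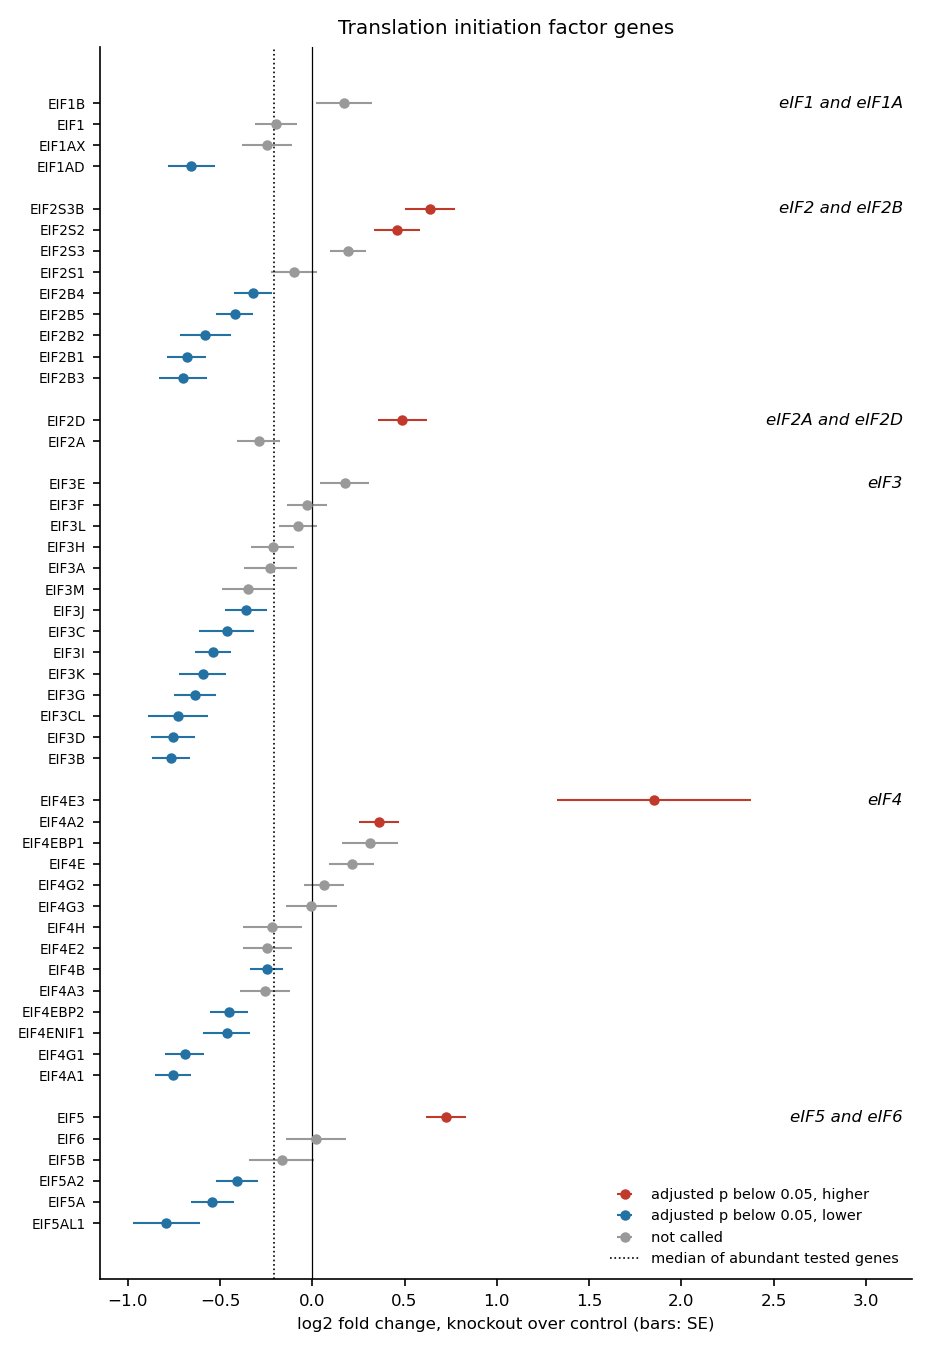
Log2 fold change, knockout over control (horizontal axis), of the 49 tested initiation factor genes, grouped by factor, with points for the fitted value, bars for its SE and colours for the call. The dotted line is the median of abundant tested genes (−0.21). The 5 EIF2B genes lie left of it, the eIF2 subunit genes right of it, and no EIF3 gene was called higher with TMM.

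The eIF2 and eIF2B genes were split by complex. All 5 genes of eIF2B were lower in the knockout, with a median log2 fold change of −0.58. Of the 4 genes of the eIF2 heterotrimer, 2 were higher and none was called lower, with a median of 0.33. EIF2S3B, 1 of these 2, is a near-identical copy of EIF2S3. With both copies summed the pair was not called (0.21, edgeR adjusted p = 0.112), which leaves EIF2S2 alone called higher. Over the 9 genes together the median was −0.32, between −0.70 for EIF2B3 and 0.64 for EIF2S3B. Of the 9, 22.2% were called higher and 55.6% lower. Those shares were 21.1% and 19.0% over all tested genes and 11.6% and 38.3% over the abundant ones. The difference between the complexes was not tested as such. The summed level of the EIF2B genes was 203, 194 and 202 CPM in the knockout and 284, 289 and 292 CPM in the controls. The summed level of the heterotrimer genes was 749, 759 and 776 CPM in the knockout and 695, 614 and 638 CPM in the controls. Neither sum overlapped between the groups, with the knockout lower for eIF2B and higher for the heterotrimer. Most of the heterotrimer sum was EIF2S3, which was not called with TMM.

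The largest fall on the log2 scale within eIF2B was that of EIF2B3 (ENSG00000070785), which encodes the gamma subunit of the catalytic part. It had 14.7, 16.1 and 14.98 CPM in the knockout and 24.9, 21.7 and 27.8 CPM in the controls. Its groups did not overlap, and its log2 fold change was −0.70 ± 0.13 (SE; edgeR adjusted p = 0.00235). EIF2B1 (ENSG00000111361) encodes the alpha subunit, part of the regulatory subcomplex that senses phosphorylated eIF2. Its levels were 68.0, 60.3 and 60.2 CPM in the knockout and 95.4, 103 and 104 CPM in the controls, a log2 fold change of −0.68 ± 0.11 (SE; edgeR adjusted p = 0.000804). The knockout libraries were close together and well below each control. EIF2B2 (ENSG00000119718), the beta subunit gene, had 18.9, 17.7 and 22.03 CPM in the knockout and 26.4, 28.0 and 33.2 CPM in the controls. It too showed no overlap, at −0.58 ± 0.14 (SE; edgeR adjusted p = 0.00793).

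The other two EIF2B genes fell less. EIF2B5, which encodes the catalytic epsilon subunit, averaged 69.5 ± 2.61 CPM in the knockout and 93.1 ± 5.32 CPM in the controls (SD, n = 3 each), a log2 fold change of −0.42 ± 0.10 (SE; edgeR adjusted p = 0.00859). EIF2B4, the delta subunit gene, averaged 32.6 ± 0.800 CPM in the knockout and 40.8 ± 0.792 CPM in the controls (SD, n = 3 each), at −0.32 ± 0.10 (SE; edgeR adjusted p = 0.0291). EIF2B4 lost its call without any one knockout library and with library size alone, upper-quartile scaling or cyclic loess. EIF2B5 lost its call without knockout replicate 1 or 2 and with library size alone. The number of eIF2 and eIF2B genes called lower was then 3 without knockout replicate 1 or 2. With offsets for GC content and transcript length EIF2B4 was no longer called (−0.14, edgeR adjusted p = 0.228).

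Within the heterotrimer, EIF2S2 (ENSG00000125977), which encodes the beta subunit, had 198, 215 and 201 CPM in the knockout and 152, 125 and 169 CPM in the controls. The groups did not overlap and the log2 fold change was 0.46 ± 0.12 (SE; edgeR adjusted p = 0.0144), a call lost without knockout replicate 2, which left 1 eIF2 gene called higher. EIF2S1, the alpha subunit gene that carries the stress phosphorylation site, averaged 91.9 ± 1.77 CPM in the knockout and 98.4 ± 15.1 CPM in the controls (SD, n = 3 each) and overlapped between the groups (−0.10, edgeR adjusted p = 0.549). EIF2S3, the gamma subunit gene, had 442, 430 and 463 CPM in the knockout and 413, 388 and 366 CPM in the controls. Its groups did not overlap, but it was not called with TMM (0.19 ± 0.10, edgeR adjusted p = 0.140). With library size alone, upper-quartile scaling and cyclic loess it was called higher, at 0.37, 0.30 and 0.47. EIF2S3B (ENSG00000180574), a near-identical copy of EIF2S3, had 19.3, 20.5 and 19.8 CPM in the knockout and 13.7, 13.4 and 11.2 CPM in the controls and was called higher (0.64 ± 0.13, edgeR adjusted p = 0.00405). Reads of the copies can be split by the counting, and with both summed the log2 fold change was 0.21 ± 0.10 and was not called (edgeR adjusted p = 0.112).

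**Figure D2:**
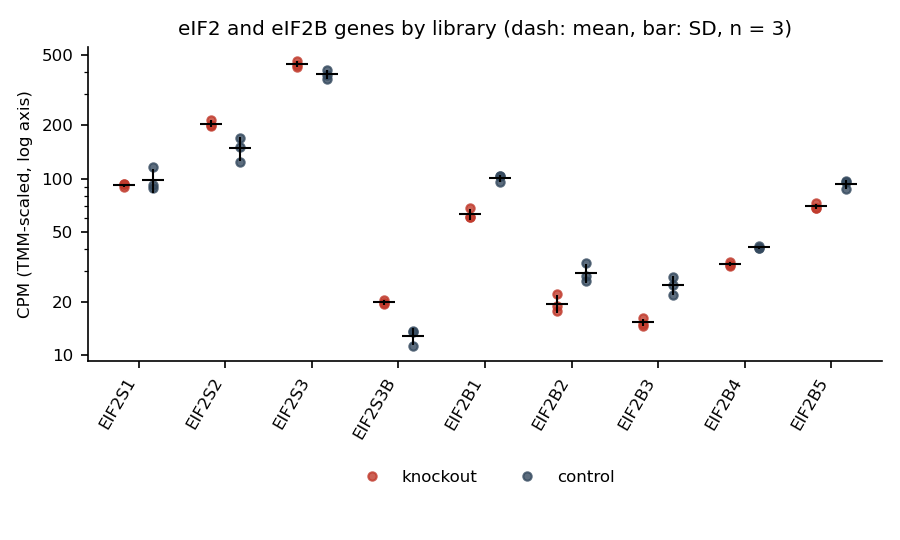
TMM-scaled CPM (log axis) of the 9 eIF2 and eIF2B genes in each knockout and control library, with points for libraries, dashes for means and bars for SD. Knockout libraries lie below the controls for each EIF2B gene and above them for EIF2S2, EIF2S3 and EIF2S3B. CPM levels of different genes also depend on transcript length and are not compared.

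2 genes share the name but not the complex. EIF2D (ENSG00000143486), which encodes a factor that can deliver tRNA to the ribosome without GTP and acts in recycling, had 52.1, 53.4 and 55.02 CPM in the knockout and 34.1, 45.9 and 34.6 CPM in the controls. It was higher without overlap (0.49 ± 0.13, edgeR adjusted p = 0.0150), a call lost without knockout replicate 2 or 3 or control replicate 1 or 3. EIF2A, a factor proposed for initiation at non-AUG codons, averaged 83.2 ± 3.91 CPM in the knockout and 102 ± 12.9 CPM in the controls (SD, n = 3 each). Its knockout libraries all lay below the controls, but it was not called (−0.29, edgeR adjusted p = 0.0745).

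The eIF3 genes moved in 1 direction where they were called. Of 14 tested genes, 8 were lower in the knockout, none was called higher (EIF3E was with cyclic loess) and 6 were not called. The 57.1% called lower stands beside 19.0% of all tested genes and 38.3% of the abundant ones, a difference that was not tested. The median log2 fold change was −0.41, against −0.21 over abundant genes. Of all 14, EIF3E alone had a positive value with TMM, although 4 others turned positive with cyclic loess. The summed level of the 14 genes was 3317 ± 80.5 CPM in the knockout and 4365 ± 265 CPM in the controls (SD, n = 3 each). The falls were uneven across the complex: all 3 genes of the b-g-i module and both of EIF3D and EIF3J were called lower, against 3 of the 9 genes of the PCI/MPN core, the set of subunits that builds the body of eIF3. That unevenness was not tested.

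EIF3B (ENSG00000106263), which encodes the scaffold of the b-g-i module, had 358, 364 and 374 CPM in the knockout and 620, 681 and 562 CPM in the controls. The knockout was 1.70-fold lower with no overlap, at a log2 fold change of −0.77 ± 0.10 (SE; edgeR adjusted p = 0.000358). EIF3I (ENSG00000084623), a WD-repeat partner of EIF3B, had 178, 181 and 180 CPM in the knockout and 257, 276 and 250 CPM in the controls. The knockout libraries were almost level with one another and all below the controls (−0.54 ± 0.10, edgeR adjusted p = 0.00176). EIF3G, which encodes the RNA-binding subunit of the module, averaged 121 ± 0.656 CPM in the knockout and 187 ± 24.3 CPM in the controls (SD, n = 3 each), at −0.64 ± 0.12 (SE; edgeR adjusted p = 0.00194). Summed over the module, levels were 658, 664 and 675 CPM in the knockout and 1043, 1170 and 996 CPM in the controls, and did not overlap.

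EIF3D (ENSG00000100353) encodes a peripheral subunit that can bind the mRNA cap. It had 230, 221 and 253 CPM in the knockout and 338, 416 and 434 CPM in the controls, 1.69-fold lower without overlap (−0.76 ± 0.12, edgeR adjusted p = 0.000912). EIF3J, whose product is loosely bound to the complex, averaged 60.8 ± 2.67 CPM in the knockout and 78.1 ± 8.54 CPM in the controls (SD, n = 3 each). It was called lower (−0.36 ± 0.11, edgeR adjusted p = 0.0288), a call lost without any one knockout library.

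In the core, EIF3K, EIF3C and EIF3CL were called lower. EIF3K averaged 110 ± 10.4 CPM in the knockout and 166 ± 21.8 CPM in the controls (SD, n = 3 each), at −0.59 ± 0.13 (SE; edgeR adjusted p = 0.00442). EIF3C and EIF3CL are near-identical copies, and in the knockout libraries one was high where the other was low. EIF3C had 228, 264 and 323 CPM in knockout replicates 1, 2 and 3, where EIF3CL had 250, 216 and 178 CPM. In control replicates 1, 2 and 3 EIF3C had 319, 376 and 428 CPM and EIF3CL 283, 415 and 367 CPM. Their sum was steadier in the knockout, at 478, 480 and 501 CPM in the knockout and 603, 791 and 795 CPM in the controls, and was lower without overlap (−0.59 ± 0.12, edgeR adjusted p = 0.00379). The sources used here do not give how the counting divided reads between the copies, so each copy's own value is uncertain. EIF3C alone lost its call without knockout replicate 1 or 2 or control replicate 2 or 3 and with the GC and length offsets, and counted once with EIF3CL the core has 2 lower genes in place of 3.

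The remaining core genes were not called. EIF3A, the large scaffold subunit gene, averaged 556 ± 29.1 CPM in the knockout and 651 ± 139 CPM in the controls, and EIF3M averaged 154 ± 3.24 CPM in the knockout and 197 ± 38.5 CPM in the controls (SD, n = 3 each). EIF3M had all knockout libraries below the controls (−0.35, edgeR adjusted p = 0.0650), and EIF3A overlapped (−0.23, edgeR adjusted p = 0.235). Log2 fold changes were −0.21 for EIF3H, −0.08 for EIF3L, −0.03 for EIF3F and 0.18 for EIF3E, all with overlapping groups. The signs of EIF3L and EIF3F were positive with library size alone, upper-quartile scaling, cyclic loess and the GC and length offsets, and those of EIF3A and EIF3H with cyclic loess.

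**Figure D3:**
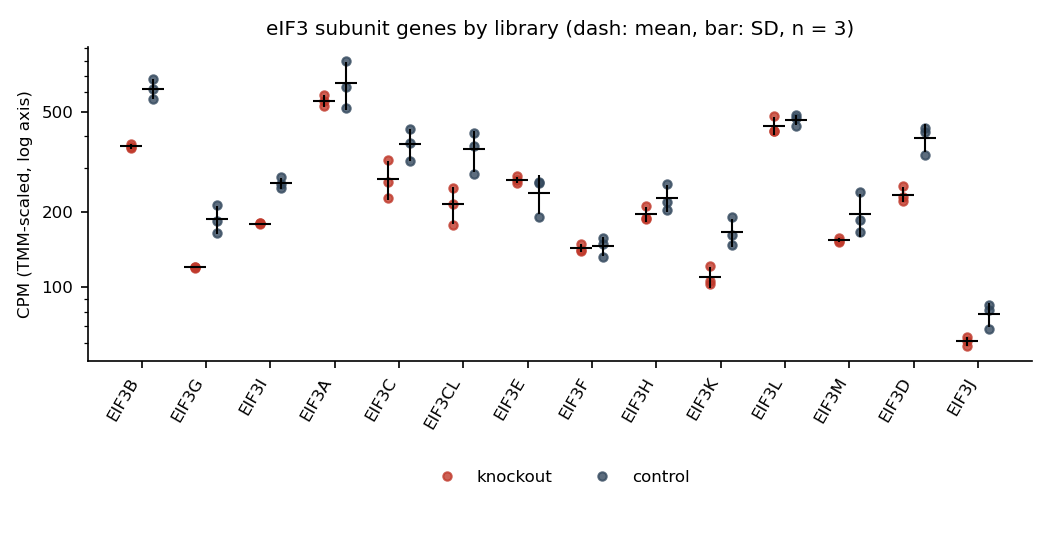
TMM-scaled CPM (log axis) of the 14 eIF3 subunit genes in each knockout and control library, ordered as b-g-i module, PCI/MPN core, then EIF3D and EIF3J, with points for libraries, dashes for means and bars for SD. The knockout libraries of EIF3B, EIF3G and EIF3I sit below their controls, and those of EIF3E, EIF3F and EIF3L overlap them. CPM levels of different genes also depend on transcript length and are not compared.

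The eIF4 genes were mixed. Of 14 tested, 5 were lower, 2 were higher and 7 were not called, and the median log2 fold change was −0.23. The 35.7% called lower and the median were near the 38.3% and −0.21 of abundant genes. Without EIF4E3, for which a count called higher is no support, 1 of 13 was higher and the median was −0.24. The median was −0.05 with library size alone and turned positive, at 0.06, with cyclic loess. Without knockout replicate 1, 2 of the genes were called lower, and without control replicate 3, 8 were. Without any one knockout library none was called higher. The summed level of the eIF4 genes was 4940 ± 83.7 CPM in the knockout and 6020 ± 16.3 CPM in the controls (SD, n = 3 each), with no overlap. Most of that difference lay in EIF4A1 and EIF4G1, with means of 836 and 692 CPM in the knockout and 1411 and 1118 CPM in the controls.

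The main helicase and scaffold genes were the lower ones. EIF4A1 (ENSG00000161960), the principal RNA helicase of cap-dependent initiation, had 795, 814 and 899 CPM in the knockout and 1425, 1485 and 1323 CPM in the controls. It was 1.69-fold lower without overlap, at a log2 fold change of −0.76 ± 0.10 (SE; edgeR adjusted p = 0.000263), and known pseudogenes of EIF4A1 can share reads with it. EIF4A2 (ENSG00000156976), its close paralog, had 542, 520 and 582 CPM in the knockout and 469, 381 and 428 CPM in the controls. It was higher without overlap (0.36 ± 0.11, edgeR adjusted p = 0.0222), a call lost without any one knockout library. EIF4G1 (ENSG00000114867), the main scaffold gene, had 699, 694 and 684 CPM in the knockout and 987, 1227 and 1142 CPM in the controls, with no overlap (−0.69 ± 0.10, edgeR adjusted p = 0.000668).

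The promoters of these genes are shown because the helicase paralogs moved apart and EIF4G1 moved with EIF4A1. Each is the 250 bases before the annotated start, 5′ to 3′, from RefSeq on GRCh38.p14. They lie at chr17:7572575-7572824, chr3:186783327-186783576 and chr3:184314356-184314605 for EIF4A1, EIF4A2 and EIF4G1, all on the plus strand, with EIF4G1's the first of 3 starts listed. Capitals mark matches on either strand to any of 4 motifs, none of which contains another. The CCAAT box is one and the TATA element TATAAA is the next. The others are the E-box word CACGTG and CCGGAAG, the core of many ETS sites.
EIF4A1: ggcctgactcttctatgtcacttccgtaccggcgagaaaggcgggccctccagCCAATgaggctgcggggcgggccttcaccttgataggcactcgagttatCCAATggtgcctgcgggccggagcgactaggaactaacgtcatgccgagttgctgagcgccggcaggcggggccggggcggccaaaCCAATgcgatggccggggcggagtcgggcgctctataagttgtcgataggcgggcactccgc
EIF4A2: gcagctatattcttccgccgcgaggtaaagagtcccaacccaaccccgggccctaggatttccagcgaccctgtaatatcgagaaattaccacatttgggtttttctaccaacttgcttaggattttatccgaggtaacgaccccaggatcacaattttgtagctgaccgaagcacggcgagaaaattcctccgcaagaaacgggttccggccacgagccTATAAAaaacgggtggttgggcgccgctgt
EIF4G1: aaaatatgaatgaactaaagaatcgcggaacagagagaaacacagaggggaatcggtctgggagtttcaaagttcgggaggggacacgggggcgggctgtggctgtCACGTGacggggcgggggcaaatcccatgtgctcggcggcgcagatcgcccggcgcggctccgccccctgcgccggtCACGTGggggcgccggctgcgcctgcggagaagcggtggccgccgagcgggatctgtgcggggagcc
The EIF4A1 window held 3 CCAAT matches and no TATAAA, the EIF4A2 window 1 TATAAA and no CCAAT, and the EIF4G1 window 2 CACGTG, while the windows of the other 2 EIF4G1 starts held 0 matches to any motif. GC content was 65.2% for EIF4A1, 51.6% for EIF4A2 and 67.2% for EIF4G1. Promoter windows were found for 44 of the 52 initiation factor genes, 60 windows in all, each searched over the same 250 bases. CCAAT occurred in 33.3% of them and in 32.01% of all 35116 promoter windows, TATAAA in 3.33% and 10.7%, CACGTG in 18.3% and 6.34%, and CCGGAAG in 18.3% and 8.52%. Shares count windows and not genes, and some genes, such as EIF2S3B, EIF6 and EIF5A, have windows that overlap. The sets were not matched for GC content or expression, and the differences were not tested. These are matches of letters, not binding sites, and no binding was measured here.

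Of the 3 tested cap-binding genes, EIF4E3 alone was called. It passed the filter on low counts only through the knockout libraries, so its call is no support for a change. EIF4E, the cap-binding protein gene, had 71.0, 71.8 and 72.7 CPM in the knockout and 73.0, 56.2 and 56.6 CPM in the controls. EIF4E2, whose product binds caps but acts as a repressor, had 77.3, 89.2 and 89.7 CPM in the knockout and 113, 106 and 83.8 CPM in the controls. Both overlapped between the groups, and neither was called (0.21 and −0.24, edgeR adjusted p = 0.198 and 0.169). EIF4E3 (ENSG00000163412), another cap-binding paralog, was near the limit of detection, with 26, 33 and 24 counts in the knockout and 6, 7 and 7 counts in the controls. Its log2 fold change was 1.85 ± 0.52 (SE; edgeR adjusted p = 0.0177), and the call was lost without any one knockout library or control replicate 1.

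Of the 2 tested 4E-binding protein genes, 1 was called. EIF4EBP2 (ENSG00000148730) had 161, 175 and 176 CPM in the knockout and 218, 230 and 251 CPM in the controls, without overlap (−0.45 ± 0.10, edgeR adjusted p = 0.00653). The call was lost without knockout replicate 1, with library size alone (−0.27) and with cyclic loess (−0.23). EIF4EBP1 had 133, 130 and 142 CPM in the knockout and 86.9, 135 and 104 CPM in the controls. Control replicate 2 lay within the knockout range and EIF4EBP1 was not called (0.31, edgeR adjusted p = 0.125). EIF4ENIF1, whose product carries eIF4E between nucleus and cytoplasm, averaged 31.9 ± 0.819 CPM in the knockout and 44.0 ± 6.65 CPM in the controls (SD, n = 3 each). It was called lower (−0.46 ± 0.13, edgeR adjusted p = 0.0161), a call lost without any one knockout library.

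The other scaffold and helicase genes overlapped. EIF4G2, a scaffold that lacks the eIF4E-binding part, had 1137, 1167 and 1099 CPM in the knockout and 1082, 954 and 1223 CPM in the controls. EIF4G3, a full-length paralog of EIF4G1, had 173, 171 and 153 CPM in the knockout and 154, 142 and 203 CPM in the controls. EIF4A3, a helicase of the exon junction complex, had 138, 139 and 144 CPM in the knockout and 199, 169 and 135 CPM in the controls. None of these 3 was called, with log2 fold changes of 0.06, −0.01 and −0.26. EIF4B, which stimulates eIF4A, was called lower by a small margin (−0.25 ± 0.09, edgeR adjusted p = 0.0488), a call lost without any one knockout library and under several other settings, while EIF4H, its smaller relative, was not called (−0.22, edgeR adjusted p = 0.304). EIF4E1B and EIF4EBP3 had too few counts to be tested.

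Ratios of paralog counts within a library need no scaling between libraries. 9 pairs were compared, and in 8 the knockout libraries did not overlap the controls. Of all tested genes taken singly, 29.6% lay wholly above the controls and 24.8% wholly below them. Those shares were 16.1% and 46.6% for abundant genes. The share among ratios of other gene pairs was not computed, so 8 of 9 is not shown to be particular to paralogs. Each of those 8 had a p of 0.1 in an exact 2-sided permutation test, the smallest that 3 against 3 libraries allow, and 0.113 after Benjamini-Hochberg adjustment over the 9 pairs, so none could pass the threshold. One of the 8 is EIF4E3/EIF4E, which had to differ because of how EIF4E3 passed the filter. Without it, 7 of 8 pairs did not overlap, with an adjusted p of 0.114. The EIF4A2/EIF4A1 ratio was 0.681, 0.639 and 0.647 in the knockout and 0.329, 0.257 and 0.323 in the controls, 2.18-fold higher. The EIF4G2/EIF4G1 ratio was 1.63, 1.68 and 1.61 in the knockout and 1.10, 0.778 and 1.07 in the controls, and the EIF4G3/EIF4G1 ratio was 0.247, 0.247 and 0.223 in the knockout and 0.156, 0.116 and 0.177 in the controls. Both pairs put EIF4G1 lower relative to its paralogs in each knockout library.

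The EIF4EBP2/EIF4EBP1 ratio went the other way, at 1.21, 1.34 and 1.24 in the knockout and 2.51, 1.70 and 2.41 in the controls. The EIF4E2/EIF4E ratio was 1.09, 1.24 and 1.23 in the knockout and 1.55, 1.89 and 1.48 in the controls. EIF4EBP2 and EIF4E2 were thus lower relative to their paralogs in each knockout library. Members of a pair differ in GC content and transcript length, for which these ratios are not adjusted. With offsets for both, the log2 fold changes of EIF4E2 and EIF4E were close, at −0.07 and −0.03. Those of EIF4EBP2 and EIF4EBP1 stayed apart, at −0.50 and 0.38. EIF4A3/EIF4A1 and EIF1B/EIF1 were higher in the knockout by 0.52 and 0.38 on the log2 scale. EIF4E3/EIF4E was 1.64 higher, a value that the filter on low counts fixed in direction. EIF5A2/EIF5A overlapped (0.13, exact p = 0.7), and its sign turned without control replicate 2. A ratio shows unequal change of the pair and not which member moved.

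**Figure D4:**
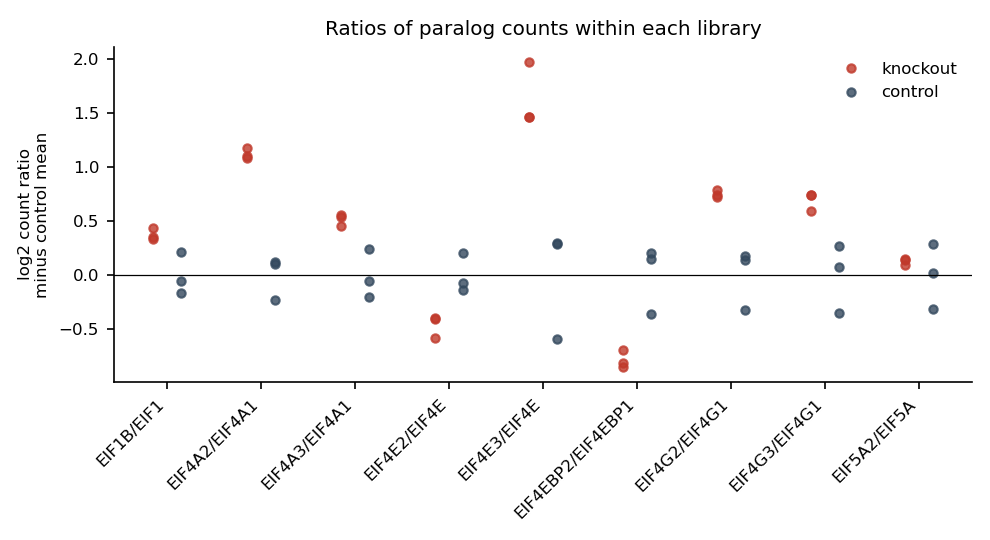
Log2 ratio of the counts of 2 paralogs in each library, minus the control mean (vertical axis), for 9 pairs, with points for single knockout and control libraries. In 8 pairs the knockout points lie outside the control range, with EIF4A2/EIF4A1 at 1.12 on average. EIF4E3/EIF4E (1.64) had to differ, since EIF4E3 was kept only through its knockout counts, and in EIF5A2/EIF5A they lie within it.

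Of the 6 genes of eIF5 and eIF6, 1 was higher, 3 were lower and 2 were not called, with a median log2 fold change of −0.29. The 50% called lower stands beside 19.0% of all tested genes and 38.3% of the abundant ones. The 16.7% called higher stands beside 21.1% and 11.6%. EIF5 (ENSG00000100664), which encodes the GTPase-activating protein of eIF2 and takes part in choosing the start codon, had 366, 382 and 354 CPM in the knockout and 237, 196 and 235 CPM in the controls. It was 1.65-fold higher without overlap, the largest rise among the initiation factor genes other than EIF4E3, at a log2 fold change of 0.72 ± 0.11 (SE; edgeR adjusted p = 0.000681). The EIF5 promoter is shown because its gene rose while most others did not. It is the 250 bases before the first of 2 listed starts, at chr14:103333987-103334236 on the plus strand (RefSeq, GRCh38.p14), with capitals for 2 CCAAT matches.
EIF5: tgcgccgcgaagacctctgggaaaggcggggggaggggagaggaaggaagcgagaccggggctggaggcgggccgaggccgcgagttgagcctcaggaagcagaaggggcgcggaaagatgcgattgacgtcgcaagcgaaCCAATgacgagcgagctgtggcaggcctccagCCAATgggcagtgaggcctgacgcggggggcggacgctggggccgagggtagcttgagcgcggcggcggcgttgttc
None of the other 3 motifs was found in that window, whose GC content was 69.2%, and the window of the other EIF5 start held 0 matches to any motif. Both EIF5, which rose, and EIF4A1, which fell, thus had CCAAT matches.

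The genes of eIF5A, a factor with the modified residue hypusine that acts mainly in elongation and termination, were all lower. EIF5A (ENSG00000132507) had 337, 365 and 365 CPM in the knockout and 551, 563 and 439 CPM in the controls, with no overlap (−0.54 ± 0.12, edgeR adjusted p = 0.00480). EIF5A2 (ENSG00000163577), its paralog, had 60.2, 65.0 and 62.6 CPM in the knockout and 90.2, 72.9 and 86.5 CPM in the controls, also without overlap (−0.41 ± 0.11, edgeR adjusted p = 0.0161). EIF5AL1 (ENSG00000253626), a near-identical copy of EIF5A at low level, had 5.69, 6.01 and 6.15 CPM in the knockout and 8.36, 10.6 and 12.0 CPM in the controls (−0.79 ± 0.18, edgeR adjusted p = 0.00640). Summed with EIF5A, it gave −0.55 ± 0.12 (SE; edgeR adjusted p = 0.00423). Nearly all of that sum was EIF5A, so it does not bear on EIF5AL1's own call, which stays uncertain. EIF5A2 lost its call without any one knockout library, and both EIF5A and EIF5A2 with cyclic loess. EIF5B averaged 150 ± 15.4 CPM in the knockout and 168 ± 44.99 CPM in the controls, and EIF6, which keeps the large subunit from joining early, 130 ± 6.84 CPM in the knockout and 128 ± 30.4 CPM in the controls (SD, n = 3 each). Neither was called, and both genes overlapped between the groups.

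Of the eIF1 and eIF1A genes, 1 of 4 tested was lower and none higher, with a median of −0.22. That 25% lower stands beside 19.0% of all tested genes and 38.3% of the abundant ones. EIF1AD (ENSG00000175376), which encodes a nuclear protein with an eIF1A-like domain, had 24.2, 25.2 and 26.3 CPM in the knockout and 33.9, 40.7 and 44.6 CPM in the controls, without overlap (−0.66 ± 0.13, edgeR adjusted p = 0.00283). EIF1, the scanning factor that guards start codon choice, had 449, 446 and 496 CPM in the knockout and 563, 568 and 462 CPM in the controls. EIF1B, its paralog, had 60.9, 59.9 and 71.3 CPM in the knockout and 69.3, 53.7 and 47.3 CPM in the controls. EIF1AX, the gene of the scanning factor eIF1A, averaged 225 ± 7.31 CPM in the knockout and 267 ± 52.5 CPM in the controls (SD, n = 3 each). These 3 genes overlapped between the groups and were not called, and EIF1AY had too few counts to be tested.

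GC content of the transcript went along with the fold change. Over the 49 tested initiation factor genes, Pearson's r between GC content and log2 fold change was −0.34 and Spearman's rho −0.40, across genes that share the same 6 libraries. Over 3830 abundant genes with a known GC content the values were −0.22 and −0.26. Median GC content was 42.1% for the 6 genes called higher, 51.4% for the 22 called lower and 43.1% for the 21 not called. With offsets for GC content and transcript length in the fit, 7 were called higher and 23 lower. EIF2B4, EIF3C and EIF4ENIF1 lost the call, and EIF1AX, EIF2A, EIF3H, EIF3M and EIF4EBP1 gained it. EIF4A1, EIF4G1, EIF3B, EIF2B1 and EIF5 stayed called with these offsets, at −0.59, −0.56, −0.58, −0.60 and 0.67.

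**Figure D5:**
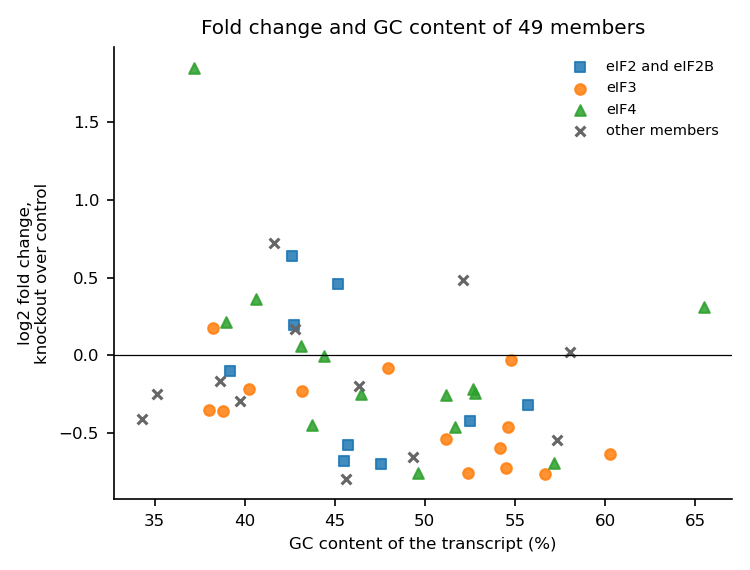
Log2 fold change, knockout over control (vertical axis), against the GC content of the transcript in percent (horizontal axis), with a point for each of the 49 tested initiation factor genes and a symbol for each group. Most points above 50% GC are negative, with EIF2D and EIF4EBP1 the highest on that side (0.49 and 0.31).

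The genes that act on the factors were read from lists chosen by function. Of 13 genes for eIF2 kinases and the eIF2 phosphatase, 3 were higher and 3 lower, or 23.1% each. The shares were 21.1% and 19.0% over all tested genes and 11.6% and 38.3% over the abundant ones. The median log2 fold change was 0.05, as over all tested genes, against −0.21 over the abundant ones. PPP1R15A, the stress-induced subunit that brings phosphatase to eIF2, had 123, 106 and 93.5 CPM in the knockout and 46.8, 50.8 and 43.6 CPM in the controls, without overlap (1.19 ± 0.13, edgeR adjusted p = 9.23e-05). IMPACT, an inhibitor of the kinase GCN2, had 27.1, 31.3 and 27.7 CPM in the knockout and 15.5, 9.69 and 12.8 CPM in the controls (1.18 ± 0.17, edgeR adjusted p = 0.000544). GCN1, which activates GCN2, was lower (−0.50 ± 0.09, edgeR adjusted p = 0.00211). NCK1 was also called higher, at 0.44, and the phosphatase subunit genes PPP1CA and PPP1CC lower, at −0.37 and −0.50.

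Of 17 genes of mTORC1, S6 kinase and MNK signalling to eIF4, 3 were higher and 5 lower, or 17.6% and 29.4%, against 21.1% and 19.0% of all tested genes and 11.6% and 38.3% of the abundant ones, with a median of −0.18. DDIT4, an inhibitor of mTORC1, had 101, 111 and 125 CPM in the knockout and 58.8, 57.7 and 39.2 CPM in the controls (1.12 ± 0.16, edgeR adjusted p = 0.000546). PDCD4, an inhibitor of the eIF4A helicase, had 75.8, 78.9 and 72.5 CPM in the knockout and 50.2, 37.5 and 44.8 CPM in the controls (0.78 ± 0.13, edgeR adjusted p = 0.000988). MTOR, the kinase gene itself, was lower (−0.47 ± 0.09, edgeR adjusted p = 0.00306). In these 3 genes, those with the smallest p in the list, the groups did not overlap. SESN2 was also called higher, at 0.60. LARP1, DEPTOR, MKNK1 and RPS6KB2 were also called lower, at −0.41, −0.37, −0.39 and −0.38.

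Of 7 poly(A)-binding protein genes and partners, 3 were lower and none higher, with a median of −0.37. The 42.9% lower stands beside 19.0% of all tested genes and 38.3% of the abundant ones. PABPC1, which binds eIF4G and the poly(A) tail, had 1507, 1491 and 1599 CPM in the knockout and 1974, 2661 and 3095 CPM in the controls (−0.75 ± 0.14, edgeR adjusted p = 0.00264). PABPC4, a paralog, and PAIP2B, an inhibitor of the poly(A)-binding protein, were also lower, at −0.60 and −0.51 on the log2 scale. Of 14 initiation helpers with other symbols, 1 was higher and 2 lower: CTIF, which serves initiation on the nuclear cap-binding complex, at 0.63, GIGYF2, a partner of EIF4E2, at −0.40, and ABCE1, the ribosome recycling factor, at −0.51. Of 14 tested elongation, termination and recycling genes, 2 were lower and none higher, the release factor gene GSPT1 at −0.34 and the selenocysteine elongation factor gene EEFSEC at −0.45. Of 9 mitochondrial translation factor genes, 3 were lower and none higher, the elongation factor genes TUFM and GFM1 at −0.61 and −0.42 and the recycling factor gene MRRF at −0.47. The shares called lower in these last 3 lists were 14.3%, 14.3% and 33.3%, against 19.0% of all tested genes and 38.3% of the abundant ones, and these differences were not tested.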

How the data were processed

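RNA was sequenced from 6 Huh7 libraries, 3 knockout and 3 control. Per the labels' protocols, total RNA was purified on columns and a SMARTER mRNA kit was used for the libraries. The authors deposited raw counts per gene. hg19 is named in the submitters' processing notes without a role, and the sources used here do not give the aligner, the counter or its use of strand. Without strand, reads of overlapping or antisense genes cannot be told apart. Of 25202 rows, 19974 have an Ensembl ID and 5228 are loci the authors' pipeline added. Columns were matched to samples by the names in the sample descriptions, and totals ran from 32517757 to 38870244 counts.

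The main test was run with edgeR 4.0.16 (R 4.3.3): filterByExpr (16331 genes kept), TMM, and the quasi-likelihood test with group as the only term. Benjamini-Hochberg adjustment ran over all tested genes, with calls at an adjusted p below 0.05. CPM values were computed here. An SE was derived from the fitted log2 fold change and its F statistic. Paralog ratios were tested by exact permutation of libraries. The code was tested on simulated data, where 14% of 1.5-fold and 66% of 2-fold changes were recovered, with 12 false calls of 140. The changed genes were drawn from all tested genes, so recovery among abundant genes alone was not measured. A gene not called may therefore still have changed. No 2 libraries of a group agreed within sampling noise (chi-square per degree of freedom at least 9.35), so all were counted.

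The initiation factor genes, their groups and the pathway lists were chosen with earlier results of these data known. Per-library values are given for up to 3 called genes with the smallest p in each direction of each group and for genes of ratios that did not overlap, and for copies of such genes and a few neighbours chosen after their values were seen. Of each pathway list up to 3 called genes with the smallest p are named, and for the eIF2 and mTORC1 lists the other called genes too.

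Alternatives were library size alone, upper-quartile scaling, DESeq2 size factors, cyclic loess with limma-trend (limma 3.58.1, prior count 2), limma-voom, DESeq2 1.42.0, no filter, 1 CPM in 3 libraries, no added loci, a threshold of 0.01, the replicate block and each library left out in turn. Offsets for GC content and transcript length (GENCODE 29, a build other than hg19, so no gene coordinates are given) sums of near-identical copies and the ratios without EIF4E3 were added after seeing the data. Figures were drawn with matplotlib 3.10.9.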

Additional observations from a re-analysis of the deposited data

How the results depend on the processing

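Under all alternatives the median log2 fold changes of the eIF2 with eIF2B genes and of the eIF3 genes stayed negative. That of eIF4 was 0.062 with cyclic loess, −0.050 with library size alone, −0.056 with GC and length offsets, −0.12 with upper-quartile scaling and −0.19 without added loci, against −0.23 as reported. That of eIF2 with eIF2B was −0.28, −0.14, −0.21, −0.21 and −0.28 in the same order, and that of eIF3 was −0.22, −0.23 and −0.31 with cyclic loess, library size alone and upper-quartile scaling. Leaving out 1 library gave −0.37 to −0.31 for eIF2 with eIF2B, −0.51 to −0.35 for eIF3 and −0.32 to −0.12 for eIF4. The median of all tested genes was 0.24 with library size alone and 0.16 with upper-quartile scaling, against 0.05 as reported. Changes under those scalings are thus shifted upward relative to TMM. The TMM factors themselves differed by group, at 1.04 to 1.08 in the knockout libraries and 0.925 to 0.955 in the controls. Which scaling is right was not tested.

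At an adjusted p below 0.01, 3984 of all tested genes were called, against 6548, and 2 initiation factor genes were called higher (1 of eIF2 with eIF2B and 0 of eIF4) and 3 of eIF4 lower. Cyclic loess called 10 higher, 1 of them in eIF3 and 4 in eIF4, with 3 of eIF4 lower. Library size alone called 14 lower, with 3 lower in eIF2 with eIF2B, and 4 higher and 2 lower in eIF4. With a filter of 1 CPM in 3 libraries, 1 of eIF4 was called higher. Leaving out 1 library gave 2 to 7 genes called higher and 14 to 25 called lower, with 1 to 2 higher and 3 to 5 lower in eIF2 with eIF2B and 0 to 3 higher and 2 to 8 lower in eIF4. With the replicate number as a block, 4 initiation factor genes were called higher (0 in eIF4) and 19 lower, over 3126 higher and 2613 lower of all tested genes. Libraries of the same number did not deviate together (correlations of 0.05, −0.10 and −0.12), so the numbers were not taken as pairs.

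The calls of 10 genes were lost at an adjusted p below 0.01 and of 8 to 11 without 1 knockout library. Library size alone ended the calls of EIF2B4, EIF2B5, EIF3C, EIF3J, EIF4B, EIF4EBP2, EIF4ENIF1 and EIF5A2, upper-quartile scaling those of EIF2B4, EIF3C, EIF3J, EIF4B and EIF5A2, cyclic loess those of EIF2B4, EIF3C, EIF3J, EIF4E3, EIF4EBP2, EIF5A and EIF5A2, and the block those of EIF2B4, EIF3J, EIF4A2, EIF4B and EIF4E3. Calls were also gained. Library size alone called EIF2S3, EIF4E and EIF4EBP1 higher, and upper-quartile scaling EIF2S3. Cyclic loess called EIF2S3, EIF3E, EIF4E, EIF4EBP1 and EIF4G2 higher. DESeq2 called EIF2A and EIF3M lower, and edgeR with DESeq2 size factors EIF3M. Leaving out 1 control library gained 3 to 4 calls, and leaving out 1 knockout library gained 0. Among called genes EIF4B alone changed sign, to 0.066 with cyclic loess. The other sign changes were in genes not called, and their cause was not tested. With cyclic loess EIF1 was 0.097, EIF1AX 0.0068, EIF2S1 0.066, EIF3A 0.094, EIF3F 0.17, EIF3H 0.014, EIF3L 0.20, EIF4G3 0.21, EIF4H 0.059 and EIF5B 0.063. With library size alone EIF2S1 was 0.082, EIF3F 0.15, EIF3L 0.10, EIF4G3 0.18 and EIF5B 0.020, and with upper-quartile scaling EIF2S1 was 0.0076, EIF3F 0.077, EIF3L 0.027 and EIF4G3 0.10. With GC and length offsets EIF3F was 0.14, EIF3L 0.059, EIF4E −0.027 and EIF4G3 0.0077. Without added loci EIF3F was 0.016 and EIF4G3 0.039. EIF4G3 was 0.011 with limma-voom and 0.010 with the block, and EIF6 was −0.0073 with DESeq2 and with its size factors. Leaving out 1 library gave −0.11 to 0.018 for EIF3F, −0.034 to 0.14 for EIF4G2, −0.12 to 0.14 for EIF4G3, −0.36 to 0.029 for EIF5B, −0.18 to 0.14 for EIF6 and −0.028 to 0.28 for the EIF5A2/EIF5A ratio. With 3 libraries a group, the ratio tests could not pass the threshold, and depth limits EIF4E3, EIF4E1B and EIF4EBP3.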
